A study of Mus musculus with 10 samples.

Results

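Methylglyoxal can be cleared without glyoxalase by enzymes that reduce or oxidise aldehydes. Transcripts of such enzymes, together with those of Adh5, Ldhd and Ager, were measured in brains with and without extra Glo1. The list held 10 genes: the aldo-keto reductases Akr1a1, Akr7a5, Akr1b8 and Akr1b3, the aldehyde dehydrogenases Aldh1a1, Aldh2 and Aldh9a1, the alcohol dehydrogenase Adh5, the D-lactate dehydrogenase Ldhd and the receptor gene Ager. A gene was taken where the platform annotation gave it a probe set of its own, and 9 of the 10 had one, of 19938 genes measured in all; each of the 9 had exactly 1 such probe set. Akr1b3, which encodes aldose reductase, had none and was not analysed here. The Tg group was 5 adult male mice, C57Bl/6J in background, that overexpressed Glo1 from a bacterial artificial chromosome. The WT group was 5 wild-type littermates of the same sex, age class and background. No mouse of either group was treated, and RNA came from the whole brain, with 1 single-channel Affymetrix array per mouse. The labels call the arrays of a group biological replicates, while the number of transgenic founder lines is not given in the sources used here.

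Methylglyoxal is a reactive dicarbonyl that forms spontaneously from the triose phosphates of glycolysis. Glyoxalase 1, the product of Glo1, acts on the adduct of methylglyoxal with glutathione, and glyoxalase 2 then releases D-lactate. Aldo-keto reductases instead reduce methylglyoxal to hydroxyacetone or lactaldehyde with NADPH, and aldehyde dehydrogenases can oxidise it to pyruvate. What escapes clearance modifies proteins into advanced glycation end products (AGEs), for which the product of Ager is a cell-surface receptor.

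Glo1 signal checked the labels: on its brighter probe set each of the 5 Tg arrays lay above every WT array, with a 2.85-fold difference (95% confidence interval 2.47 to 3.27, limma adjusted p = 3.50e-05). Array medians lay between 7.95 and 8.05 log2 units. A pair of arrays stood apart in tissue markers, so the member differences below are also given without WT replicate 2. Pituitary markers (7 of 8 measured) averaged 9.28 log2 units on Tg replicate 2 and 6.65 to 6.84 on the other Tg arrays, and 9.64 on WT replicate 2 against 6.56 to 6.72 on the other WT arrays. Cerebellar markers (12 of 12 measured) averaged 10.23 to 10.36 on the Tg arrays, 8.08 on WT replicate 2 and 10.43 to 10.54 on the other WT arrays, so WT replicate 2 goes against its label of whole brain for this region. Blood markers (2 of 9 measured) averaged 7.66 to 7.82 on Tg arrays, 8.99 on WT replicate 2 and 7.73 to 7.92 on the other WT arrays. General neuronal markers, 8 of 8 measured, lay at 12.15 to 12.18 in Tg and 12.14 to 12.19 in WT. Of 84 measured genes in 11 marker lists, 0 passed the limma threshold with all arrays, and 1 had an unadjusted p under 0.05, where 2.21% of all probe sets had one. Without WT replicate 2 these counts were 0 and 15 (17.9%), where 11.0% of all probe sets had one. Of the 15, 10 were cerebellar markers, all lower in Tg: that list's Tg levels then lay wholly below its WT levels, with a median difference of -0.20 log2 units, 11 of 12 lower, and Cbln1, a cerebellar synapse organiser, at -0.25 (95% interval -0.35 to -0.15, limma adjusted p = 0.274).

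The members ran from 5.81 to 12.26 log2 units of signal, and 8 of the 9 were brighter than the median probe set. Probe sets differ in how brightly they read the same amount of RNA, so the order below is an order of array signal and not of transcript number. Akr1a1, which encodes an NADPH-dependent aldehyde reductase, was the brightest member at 12.26 ± 0.056 log2 units over all 10 arrays (SD), above 98.1% of probe sets. Aldh1a1, a cytosolic retinaldehyde dehydrogenase found in midbrain dopamine neurons among other cells, came second at 10.53 ± 0.18. Aldh9a1, which oxidises aminoaldehydes on the route to carnitine and to GABA, followed at 9.91 ± 0.15. Each of these 3 held the same place on all 10 arrays, and so did Akr1b8 in last place. The ranges of Aldh1a1 and Aldh9a1 still overlapped across arrays, with a low of 10.09 for Aldh1a1 and a high of 10.13 for Aldh9a1.

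In the middle of the order the ranges of some neighbours overlapped as well. Adh5, the glutathione-dependent formaldehyde dehydrogenase that also reduces S-nitrosoglutathione, read 9.58 ± 0.089. Aldh2, the mitochondrial enzyme of acetaldehyde oxidation, read 9.50 ± 0.070. Akr7a5, a reductase of succinic semialdehyde and of dialdehydes, read 9.45 ± 0.090. These 3 overlapped in range, with gaps of 0.088 and 0.044 between neighbours; Adh5 exceeded Aldh2 on 9 arrays and Aldh2 exceeded Akr7a5 on 7. Ldhd, the mitochondrial oxidase of D-lactate, and Ager formed another overlapping pair at 8.22 ± 0.12 and 8.15 ± 0.16, with Ldhd above Ager on 8 of 10 arrays. Akr1b8 was far dimmer than all others at 5.81 ± 0.094.

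Receptors of the olfactory and vomeronasal epithelia and trace amine receptors, which brain is not expected to express broadly, gave a gauge of dim signal. Their 1218 probe sets had a median of 5.22 and 5th and 95th percentiles of 4.11 and 6.96 log2 units. Akr1b8 lay inside that range, above 72.2% of these probe sets, so that its signal was not separable from that of receptor genes. The other 8 members lay above the range. The order of the 9 was the same in Tg arrays alone, in WT arrays alone, without WT replicate 2 and after quantile normalization. Averaging probe sets per gene could not change it, because each member had only 1 probe set.

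**Figure D1:**
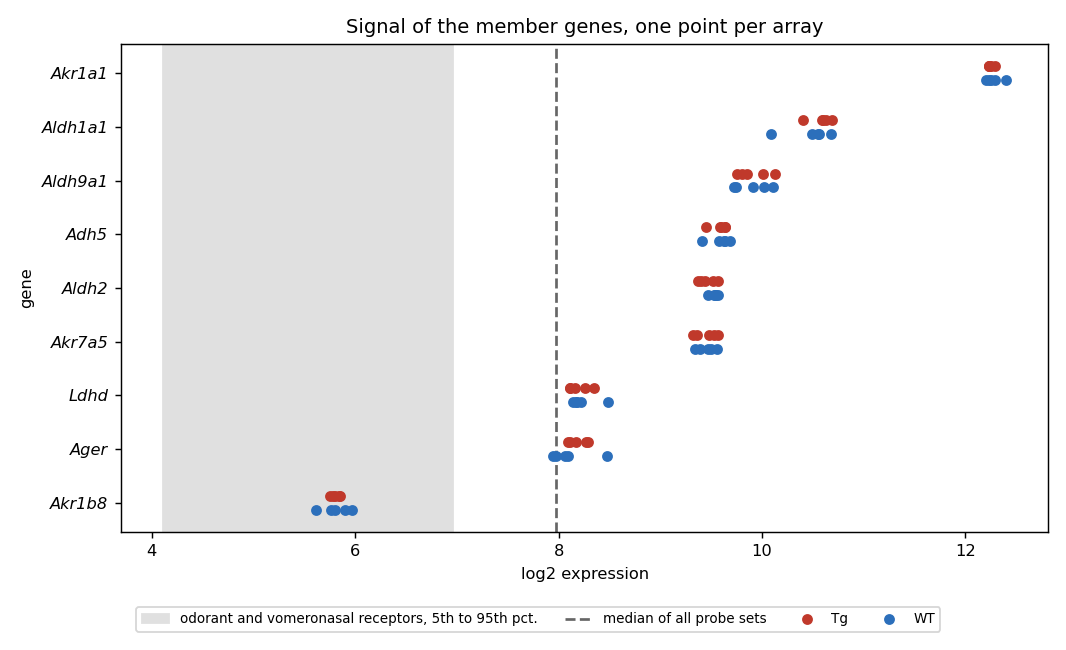
Signal of the 9 measured members in log2 units, with 1 point per array for Tg (red) and WT (blue), ordered from brightest to dimmest. The grey band is the 5th to 95th percentile of 1218 olfactory, vomeronasal and trace amine receptor probe sets and the dashed line the median of all probe sets; Akr1b8 alone lies in the band, while Akr1a1 stands clear of the rest at the bright end.

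Promoter sequence was compared with this order, because genes with CpG-rich promoters are on the whole read broadly across tissues. RefSeq promoter windows on GRCm38.p6, from 250 bases before to 50 after the transcript start, were found for 8 of the 9 members (Aldh2 had none). Over 32851 mouse windows the median CpG count was 7. Genes whose richest window held at least 26 CpGs had a median signal of 9.41 log2 units (4221 genes), against 6.20 for genes with at most 5 (4075 genes). The members at the ends of the order did not differ in this way: Akr1a1 had 11 CpGs and Akr1b8, the dimmest, had 10. Aldh1a1, in second place, had 3 and 1 CpGs in its 2 windows, the second richer than only 5.43% of windows. Akr7a5 had 27, Adh5 had 3 and 26 in its 2 windows, Ldhd 11, Aldh9a1 9 and Ager 4. The windows of the brightest member, of Aldh1a1 and of the dimmest member are shown to make this contrast visible, 5′ to 3′ on the strand of the gene, with every CpG in capitals.
Akr1a1, chr4:116651625-116651924, minus strand, 11 CpGs: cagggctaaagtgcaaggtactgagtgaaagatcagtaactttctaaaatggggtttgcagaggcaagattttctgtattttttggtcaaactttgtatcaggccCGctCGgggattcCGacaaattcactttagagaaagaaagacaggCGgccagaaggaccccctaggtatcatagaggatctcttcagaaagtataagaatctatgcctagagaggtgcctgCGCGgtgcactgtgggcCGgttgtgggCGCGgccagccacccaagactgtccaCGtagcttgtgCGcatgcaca
Aldh1a1, chr19:20601718-20602017, plus strand, 1 CpG: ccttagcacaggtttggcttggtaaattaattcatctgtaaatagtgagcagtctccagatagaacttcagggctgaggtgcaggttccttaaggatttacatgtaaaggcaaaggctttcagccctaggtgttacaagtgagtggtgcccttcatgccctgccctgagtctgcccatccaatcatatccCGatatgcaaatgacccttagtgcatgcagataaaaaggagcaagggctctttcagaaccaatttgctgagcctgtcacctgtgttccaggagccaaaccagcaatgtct
Akr1b8, chr6:34353896-34354195, plus strand, 10 CpGs: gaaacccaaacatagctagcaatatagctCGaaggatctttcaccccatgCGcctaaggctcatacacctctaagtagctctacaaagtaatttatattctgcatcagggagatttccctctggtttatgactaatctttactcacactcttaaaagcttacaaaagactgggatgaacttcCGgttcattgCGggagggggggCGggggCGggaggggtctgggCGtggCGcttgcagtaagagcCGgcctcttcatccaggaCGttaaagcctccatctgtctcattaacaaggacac

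A set of 3 short motifs was searched on both strands of these windows. TATAAA, the core of the TATA box, occurred in 1 window of Adh5 and in that of Akr1b8, and in 13.6% of all windows. TGACNNNGC, the core of the antioxidant response element, occurred in the window of Aldh9a1 and in 12.4% of all windows. GGGCGG, the core of the GC box, occurred in 1 window of Adh5 and in those of Akr7a5 and Akr1b8, and in 35.7% of all windows. TATAAA and GGGCGG share no letters, so their matches could not overlap, and the 1 member window with TGACNNNGC held neither of the others. A match here describes letters and is no evidence that a factor binds.

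Of the 9 members, 0 passed the limma threshold between Tg and WT brain (adjusted p of 0.9998 for each). In the same test 0.0345% of the 28944 probe sets passed, 0.00691% higher and 0.0276% lower in Tg. An unadjusted p under 0.05 was found for 0 members and for 2.21% of all probe sets, 0.985% with higher values in Tg. The groups failed to overlap for 0 members, against 0.149% of probe sets higher and 0.311% lower in Tg. The differences, Tg minus WT, ran from -0.071 to 0.11 log2 units, with a median of -0.0029 over the members and -0.0031 over all probe sets. With all arrays, the 95% interval of all 9 members lay between a fall of 20% and a rise of 25%, which held for 91.9% of all probe sets. The upper bound of Aldh1a1 was just inside, and it lay outside under several alternative settings described at the end. Whole-brain RNA cannot tell fewer cells of a type from less RNA per cell.

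Without WT replicate 2, again 0 of the 9 members passed, where 0.0380% of probe sets did, 0.00691% higher and 0.0311% lower in Tg. The groups failed to overlap for 0 members, against 1.86% of probe sets higher and 1.24% lower in Tg, and all 9 intervals stayed within the same bounds, as did 90.0% of all. Without both replicate 2 arrays 0 members passed as well, against 0.0380% of probe sets, 0.00691% higher and 0.0311% lower in Tg. No member's groups failed to overlap there, against 2.64% of probe sets higher and 2.13% lower in Tg, and the intervals of 9 members and 88.4% of probe sets lay within the bounds. The count at an unadjusted p under 0.05 was 1 member in each of these comparisons, described with Ager below.

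The aldo-keto reductases come first by role. Akr1a1 (probe set 10515352, chromosome 4) read 12.23, 12.29, 12.24, 12.26 and 12.24 log2 units in Tg replicates 1 to 5, against 12.29, 12.40, 12.20, 12.24 and 12.26 in WT replicates 1 to 5. The Tg values all lay inside the WT range, whose top was WT replicate 2. The difference was -0.029 (95% interval -0.13 to 0.069, exact permutation p = 0.516), and its interval was the narrowest of the 9 in width. Without WT replicate 2 it was 0.0024 (-0.076 to 0.081), and without both replicate 2 arrays -0.0078 (-0.089 to 0.074), so its sign was not stable.

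Akr7a5 (probe set 10509635, chromosome 4) read 9.33, 9.48, 9.56, 9.53 and 9.36 in Tg brain, against 9.47, 9.50, 9.40, 9.34 and 9.56 in WT brain. The groups covered nearly the same range. The difference was -0.0012 (95% interval -0.13 to 0.13, exact permutation p = 0.984), and 0.0098 (-0.13 to 0.15) without WT replicate 2. Akr7a5 therefore had no stable sign.

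Akr1b8 (probe set 10537146, chromosome 6) read 5.80, 5.78, 5.85, 5.84 and 5.75 in Tg brain, against 5.76, 5.90, 5.81, 5.62 and 5.97 in WT brain. All Tg values lay inside the wider WT range. The difference was -0.0070 (95% interval -0.14 to 0.13, exact permutation p = 0.929), and 0.015 (-0.12 to 0.15) without WT replicate 2. At signal this low a fold change on an array can be compressed, so the narrow interval bounds the difference in signal and not in RNA. In the gene order of GRCm38.p6 Akr1b8 sits between Akr1b3 and Akr1b10, and Akr1b10, chosen here as its neighbour, was bright at 9.24 log2 units and differed by 0.071 (-0.050 to 0.19).

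The aldehyde dehydrogenases differed most in how far their arrays spread. Aldh1a1 (probe set 10461979, chromosome 19) read 10.60, 10.41, 10.68, 10.63 and 10.59 in Tg brain, against 10.50, 10.09, 10.68, 10.56 and 10.55 in WT brain. WT replicate 2 was the lowest of the 10 arrays and Tg replicate 2 the next lowest. The difference was 0.11 (95% interval -0.11 to 0.32, exact permutation p = 0.452), the largest of the 9 in size. Without WT replicate 2 it was 0.0097 (-0.12 to 0.14), and without both arrays it was 0.053 (-0.054 to 0.16). Its spread within groups, 0.18 log2 units, exceeded that of 88.8% of probe sets with all arrays and was 0.094, above 59.3%, without WT replicate 2.

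Because Aldh1a1 is known from midbrain dopamine neurons, 9 markers of these cells were set beside it. They averaged 8.49 to 8.59 log2 units on Tg arrays, 8.71 on WT replicate 2 and 8.37 to 8.49 on the other WT arrays. Of the 9 markers, 7 were highest on WT replicate 2, where Aldh1a1 was lowest. The other 2 were Th, tyrosine hydroxylase, at 9.01 on that array against up to 9.38 elsewhere, and Nr4a2. The median shift of all probe sets on that array, against the other WT arrays, was 0.085 log2 units upwards. The part of these markers in the Aldh1a1 values was not tested.

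The profile of Aldh1a1 over the 10 arrays, centred in each group, was compared with that of every measured gene by root mean square difference. The 5 closest genes were Dkc1, which encodes the pseudouridine synthase dyskerin (0.029 log2 units), Nxt2, an mRNA export factor (0.035), Pik3c2a, a phosphoinositide kinase (0.036), Cebpzos (0.037) and Elovl2, a fatty acid elongase (0.040). The Aldh1a1 profile itself had a root mean square of 0.16. Since the measure picks genes that share the low value of Aldh1a1 on WT replicate 2, the low value of all 5 on that array follows from the choice.

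Aldh2 (probe set 10533345, chromosome 5) read 9.44, 9.40, 9.57, 9.52 and 9.37 in Tg brain, against 9.54, 9.54, 9.57, 9.53 and 9.47 in WT brain. In Tg, 3 of 5 arrays read lower than any WT array and 1 read higher than any, so the groups overlapped. The difference was -0.071 (95% interval -0.17 to 0.031, exact permutation p = 0.127), and -0.069 (-0.18 to 0.036) without WT replicate 2. Aldh2 was the member of lowest p with all arrays and, unlike Aldh1a1, it kept nearly the same difference without that array.

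Aldh9a1 (probe set 10351414, chromosome 1) read 10.01, 9.76, 10.13, 9.80 and 9.85 in Tg brain, against 9.91, 9.75, 10.11, 10.02 and 9.73 in WT brain. The groups overlapped almost fully. The difference was 0.0089 (95% interval -0.19 to 0.21, exact permutation p = 0.913) and -0.030 (-0.23 to 0.17) without WT replicate 2. Aldh9a1 kept a wide spread without that array, 0.16 log2 units, above 91.5% of probe sets.

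Adh5 (probe set 10496475, chromosome 3) read 9.64, 9.45, 9.60, 9.64 and 9.59 in Tg brain, against 9.64, 9.41, 9.68, 9.62 and 9.58 in WT brain. The lowest array of each group was its replicate 2. The difference was -0.0029 (95% interval -0.13 to 0.13, exact permutation p = 0.968), and -0.048 (-0.15 to 0.057) without WT replicate 2. Without both arrays it was -0.013 (-0.098 to 0.071).

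Ldhd, which handles the D-lactate that the glyoxalase route makes, showed the opposite pattern on these arrays. Ldhd (probe set 10581865, chromosome 8) read 8.11, 8.35, 8.26, 8.11 and 8.16 in Tg brain, against 8.18, 8.49, 8.22, 8.17 and 8.15 in WT brain. The highest array of each group was its replicate 2. The difference was -0.043 (95% interval -0.20 to 0.12, exact permutation p = 0.611), and 0.018 (-0.099 to 0.14) without WT replicate 2. Without both arrays it was -0.019 (-0.12 to 0.080).

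Ager, like Aldh1a1, had a difference that depended on WT replicate 2. Ager (probe set 10444407, chromosome 17) read 8.09, 8.27, 8.11, 8.29 and 8.17 log2 units in Tg brain, against 8.09, 8.47, 7.94, 7.97 and 8.07 in WT brain. WT replicate 2 was the highest of all 10 arrays, above every Tg value, while of the other 4 WT arrays 3 lay below every Tg value and WT replicate 1 lay just above the lowest, Tg replicate 1. With all arrays the difference was 0.076 (95% interval -0.13 to 0.28, exact permutation p = 0.484).

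Without WT replicate 2, Ager averaged 8.19 ± 0.089 in Tg (SD, n = 5) and 8.02 ± 0.073 in WT brain (SD, n = 4). The difference was then 0.17 (95% interval 0.047 to 0.29), a 1.12-fold higher signal in Tg, with 4 of 5 Tg values above the highest WT value. It did not pass the limma threshold (adjusted p = 0.407; exact permutation p = 0.0317, where 5 against 4 arrays can give no less than 0.0159). Ager was the 1 member of 9 with an unadjusted p under 0.05 in that comparison, where 11.0% of all probe sets had one, 7.07% with higher values in Tg. A share of 1 in 9 is close to this background. Without both replicate 2 arrays the difference was 0.15 (0.021 to 0.27; limma adjusted p = 0.489), and Ager was again the 1 member of 9 with an unadjusted p under 0.05, where 9.74% of probe sets had one, 6.22% with higher values in Tg. In the comparison without WT replicate 2, cerebellar markers averaged 10.23 to 10.36 log2 units on Tg arrays and 10.43 to 10.54 on WT arrays, with 10 of 12 at an unadjusted p under 0.05, all lower in Tg. The part of these markers in the Ager difference was not tested, nor was that of the blood and pituitary markers in the Ager value of WT replicate 2. Ager and Glo1 both lie on chromosome 17. In gene order Ager stands between Pbx2 and Rnf5, which differed by -0.021 and -0.036 with all arrays, where Ager differed by 0.076. The differences of these neighbours without WT replicate 2 are not given here.

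**Figure D2:**
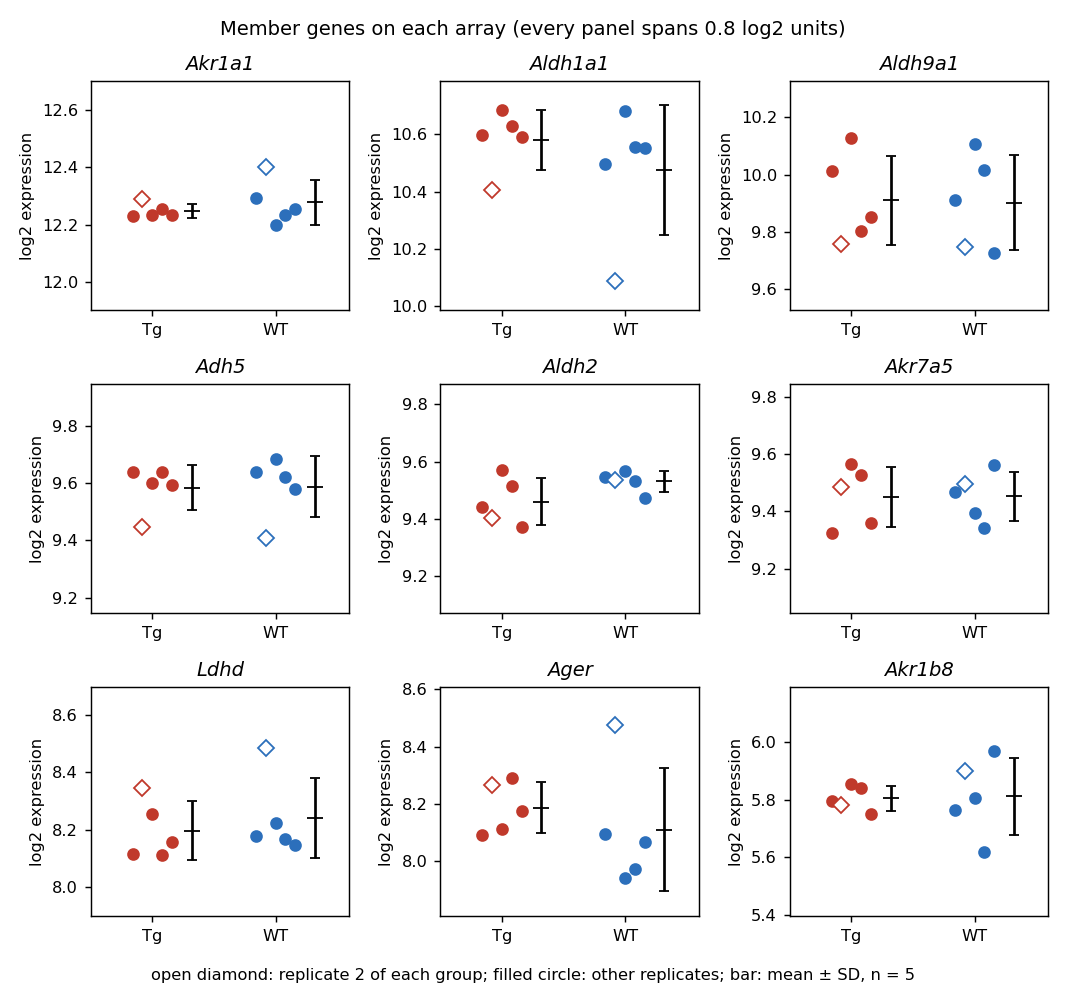
Log2 expression of each member on every array, with Tg (red) left of WT (blue) in each panel, open diamonds for replicate 2 of each group, and black bars for the mean ± SD of 5 arrays. The open diamonds are the low points of Aldh1a1 and Adh5 and the high points of Ldhd in both groups, and the WT diamond of Ager, at 8.47, lies above every other array.

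**Figure D3:**
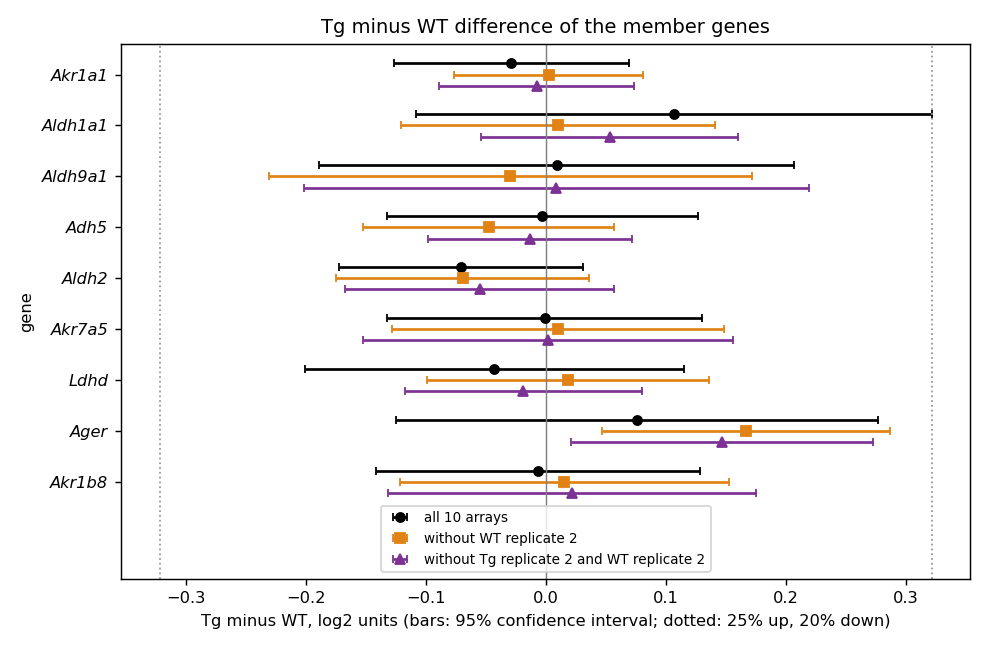
Tg minus WT difference in log2 units with its 95% confidence interval for each member, with all 10 arrays (black), without WT replicate 2 (orange) and without both replicate 2 arrays (purple). Every interval lies inside the dotted lines at a fall of 20% and a rise of 25%, and those of Ager exclude 0 once WT replicate 2 is left out, with an adjusted p of 0.407 without WT replicate 2 and 0.489 without both.

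The replicate 2 arrays were next compared with the other 4 arrays of their own group. On WT replicate 2, Aldh1a1 was 0.48 log2 units below the mean of the other WT arrays, a shift larger downwards than all but 2.33% of probe sets, and Ager 0.45 above it, a shift higher than that of 96.4%. Ldhd was 0.31 above that mean, a shift higher than 85.8% of probe sets, and Akr1a1 0.16 above it, higher than 62.6%. Adh5 was 0.22 below that mean and Aldh9a1 0.19 below it, where 10.5% and 12.3% of probe sets shifted further down. The median probe set shifted by 0.085 on that array. Akr1a1, Ldhd and Ager were each highest there of all 10 arrays, and Aldh1a1 and Adh5 lowest. How many of all probe sets were highest or lowest there was not counted.

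Tg replicate 2 moved most members the same way but less far. Aldh1a1 lay 0.22 log2 units below the mean of the other Tg arrays, Aldh9a1 0.19 below and Adh5 0.17 below, while Ldhd lay 0.19 above and Ager 0.099 above. In all, 7 of the 9 members shifted in the same direction on both arrays, as did 59.3% of all probe sets; the exceptions were Aldh2 and Akr1b8. Both arrays had high pituitary markers, and the cerebellar markers were low on WT replicate 2 alone. Which tissue the shifts of the members follow was not tested.

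**Figure D4:**
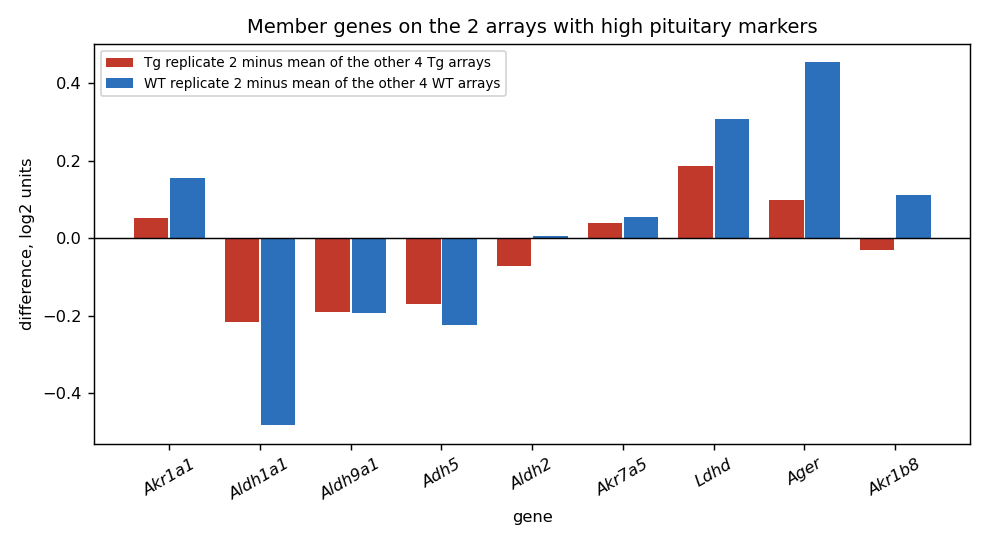
Difference in log2 units between replicate 2 and the mean of the other 4 arrays of its group, for Tg (red) and WT (blue), by member from brightest to dimmest. Aldh1a1, Aldh9a1 and Adh5 are low and Ldhd and Ager high on both arrays, with the WT bars of Aldh1a1 and Ager the longest at -0.48 and 0.45.

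The wider families and the pathway around the members were described from 6 lists. With Glo1 left out, 78 genes were measured, and 0 passed the limma threshold, against 0.0345% of all probe sets. An unadjusted p under 0.05 was found for 2 of them, against 2.21% of all probe sets. Their differences ran from -0.23 to 0.14 log2 units with a median of 0.0068, 45 higher and 33 lower in Tg, none of them called. Without WT replicate 2, 11.0% of all probe sets had an unadjusted p under 0.05. In the lists it was 2 of 17 other aldo-keto and carbonyl reductases, 2 of 18 other aldehyde dehydrogenases and 0 of 7 other alcohol dehydrogenases. It was 1 of 11 genes of lactate handling, 1 of 5 of the glyoxalase route and 1 of 20 of the AGE receptor list. Each gene given below for that comparison was picked as the lowest p of its list, Glo1 left out.

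Among other aldo-keto and carbonyl reductases (17 of 18 measured) the median difference was 0.030. The lowest p belonged to Akr1c6, a hydroxysteroid dehydrogenase, at 0.14 (95% interval -0.0057 to 0.28). Akr1c6 signal was dim at 5.48 log2 units, inside the receptor gauge. Without WT replicate 2 the lowest p belonged to Dcxr, L-xylulose reductase, at 0.12 (0.024 to 0.22, limma adjusted p = 0.407). Of these 17, 7 were brighter than the receptor gauge, led by Cbr1, carbonyl reductase 1, at 9.44. Other aldehyde dehydrogenases (18 of 18) had a median of 0.013, with Aldh3b2 at -0.094 (-0.25 to 0.061) and, without WT replicate 2, the retinaldehyde dehydrogenase Aldh1a3 at 0.12 (0.015 to 0.23; limma adjusted p = 0.422). Of these, 15 were brighter than the gauge, led by Aldh7a1, an enzyme of lysine breakdown, at 10.44.

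Other alcohol dehydrogenases, with the S-formylglutathione hydrolase Esd that acts after Adh5, numbered 7 of 7 measured and had a median of 0.0052, with Adh1 at 0.13 (95% interval -0.097 to 0.36). Only Adhfe1, Esd and Adh1 among them were brighter than the gauge. Genes of lactate handling (11 of 13) had a median of 0.036, and Ldhc, the testis lactate dehydrogenase subunit, differed by 0.13 (0.0070 to 0.25; limma adjusted p = 0.9998) at a dim 5.87 log2 units.

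The glyoxalase route other than Glo1 (5 genes) had a median of -0.051, and Glod4 differed by -0.11 (95% interval -0.23 to 0.018), and by -0.14 (-0.26 to -0.015; limma adjusted p = 0.424) without WT replicate 2. AGE receptors and the ligands and partners of Ager (20 of 20) had a median of -0.0094. In that list S100a10, an annexin A2 partner, had the lowest p, at 0.11 (0.0090 to 0.22; limma adjusted p = 0.9998). Without WT replicate 2 the lowest p in that list was that of Lgals3, galectin 3, an AGE-binding lectin, at 0.14 (0.035 to 0.24; limma adjusted p = 0.407).

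**Figure D5:**
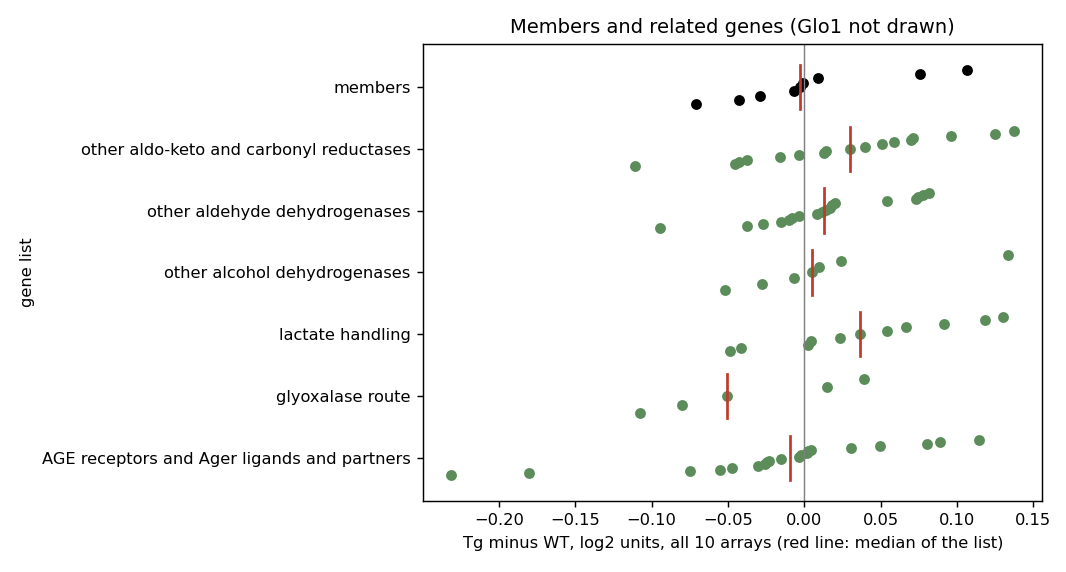
Tg minus WT difference in log2 units with all 10 arrays for the 9 members (black) and for the related genes of 6 lists (green), with the median of each list as a red line and Glo1 left out. Every list straddles 0, and the widest points, at -0.23 and 0.14, belong to genes that did not pass the limma threshold.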

How the data were processed

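Each whole-brain RNA sample was hybridised to 1 Affymetrix mouse gene array. The authors deposited log2 expression values; the submitters' processing notes name Affymetrix Expression Console, version 1.1.2. How background, normalization and probe set summaries were set is not stated, and the labels record no batch. Values ranged from 3.28 to 14.7. The first 6612 of 35556 rows, a run of consecutive identifiers without genes, were taken as controls and left out. Of 28944 probe sets, 21789 had 1 annotated gene, and symbols were updated through Entrez identifiers for 21698. A gene was represented by its brightest probe set.

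Tg and WT were compared with limma 3.58.1 (R 4.3.3; lmFit, eBayes, no covariate), adjusted by Benjamini-Hochberg over 28944 probe sets at 0.05, and with two-sided exact permutation tests (scipy 1.17.1). The fit was first tested on simulated arrays. All members are named; of each related list the member of lowest p is named, and Akr1b10, Pbx2, Rnf5, the genes of lowest p without WT replicate 2, Cbln1, Th, Nr4a2, Glod4, Adhfe1, Esd and the brightest list members were added after their values were seen. Members and lists were chosen with earlier results of these data known. The labels do not say whether replicate numbers pair the samples. Same-numbered deviations correlated from -0.47 to 0.45. Differently numbered arrays were not compared, so these values do not settle it. A protein comparison was not made, and the promoter description was added after the values were seen. No read depth applies; the number of arrays limits precision.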

Additional observations from a re-analysis of the deposited data

Results flagged for a closer look

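A total of 3 values of single arrays stood far from the other 4 of their group by Dixon's ratio at the 95% level (critical value 0.71), among 18 groups of 5 arrays examined; chance flags about 1 group in 20. Ager read 8.47 log2 units on WT replicate 2, against 8.09 on the next WT array. Ldhd read 8.49 on WT replicate 2, against 8.22 on the next. Adh5 read 9.45 on Tg replicate 2, against 9.59 on the next lowest Tg array. Both arrays had high pituitary markers (9.28 on Tg replicate 2 and 9.64 on WT replicate 2), and their part in these values was not tested.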

How the results depend on the processing

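Under 20 alternative settings, 0 of the 9 members passed the threshold in each, the replicate number as a block included (lowest adjusted p there 0.9992). Few probe sets passed in any setting: 1 or 2 higher and 7 to 9 lower in Tg, of 17366 to 35556 tested. The lowest adjusted p of any member was 0.407, for Ager without WT replicate 2. Aldh1a1, Aldh2 and Ager kept their sign throughout. With single arrays left out, Aldh1a1 ranged from 0.0097 to 0.16, Aldh2 from -0.098 to -0.048 and Ager from 0.034 to 0.17. The others changed sign: Akr1a1 ranged from -0.048 to 0.0024, Ldhd from -0.080 to 0.018, Akr1b8 from -0.055 to 0.032, Akr7a5 from -0.029 to 0.030, Aldh9a1 from -0.045 to 0.060 and Adh5 from -0.048 to 0.031. Signs also turned under array weights (Akr1b8 0.015, Akr7a5 8.92e-05, Aldh9a1 -0.0093), quantile normalization (Akr7a5 0.023, Adh5 0.019) and cyclic loess (Akr7a5 0.020, Adh5 0.018). Leaving out both replicate 2 arrays, an alternative chosen after seeing the data, turned Akr1b8 (0.021) and Akr7a5 (0.0018). The cause was not tested. The replicate block could not change the differences, because each replicate number held 1 array of each group. Only their intervals could change. Akr1b8 fell below the filter that keeps the upper 60% of probe sets. Over all probe sets, 640 had an unadjusted p under 0.05 with all arrays, 3189 without WT replicate 2, 2820 without both replicate 2 arrays, 2147 with array weights, 1103 with control rows, 396 without Tg replicate 4, 391 without WT replicate 4 and 344 in the upper 60%. Signal over background was not available, so how large a difference in Akr1b8 RNA its dim signal could show is unknown.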
